A study of Mus musculus with 15 samples.

Results

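The 9 libraries described here came from naive mouse splenic B cells activated in culture for 5 days, and they were set together against 3 libraries of naive B cells. They were chosen by sample title, as all libraries titled as day 5 activated cells, and make up 9 of the 15 RNA sequencing libraries of the series. All mice were wild-type males 3 months of age that had been immunised with sheep red blood cells, a particulate antigen, and spleens were taken 9 days later. Per the labels, the naive B cells were sorted after magnetic enrichment for B220. Those for culture were kept for 5 days in embryonic stem cell medium based on KO-DMEM, with fresh cytokines on days 0 and 3. The titles name 1 of 3 stimuli. These were anti-CD40 at 5 µg/ml with mouse IL-4 at 80 ng/ml, CpG oligonucleotide at 2 µM, and lipopolysaccharide (LPS) at 25 µg/ml, with 3 libraries each. Whether IL-4 was added with CpG or LPS too is not clear from the labels. Within each stimulus and within the naive group the libraries carry the letters A, B and C. No label ties the letters to animals or cultures or speaks of pooling. The p-values therefore measure the spread of these libraries, which may be technical. The naive libraries were taken as uncultured, so stimulus, medium and time in culture cannot be told apart in any difference reported here.

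A resting follicular B cell is small, quiescent and recirculating. Signals through CD40, which T cells engage with CD40 ligand, or through Toll-like receptors for CpG DNA and LPS drive it into growth and division. IL-4 acts through JAK kinases and STAT6, induces feedback inhibitors of the SOCS family, and directs class switching of the immunoglobulin heavy chain to IgG1 and IgE. Cells that leave the proliferative phase towards antibody secretion enlarge their endoplasmic reticulum under the transcription factor XBP1.

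The 12 libraries held 25397624 to 36272197 counts, and at these depths the spread between libraries, not counting error, sets the precision for all but the lowest genes. Across genes, activated libraries of the same letter and different titled stimuli had correlations of log2 CPM, counts scaled by effective library size, of 0.987 to 0.995. Those of the same stimulus and different letters had 0.967 to 0.979, and those that shared neither had 0.964 to 0.981. For this reason the 3 activated libraries of a letter were summed into 1 unit, and 3 activated units were tested against 3 naive libraries. With letter as a term, 79 of 15727 genes, or 0.502%, differed by titled stimulus. Naive B stood apart from naive A and C on the second principal component, at -83.9 against 50.2 and 49.0, and had 11523 genes detected against 13920 in naive A and 18866 in naive C. Summed levels of an erythroid list of 10 genes reached 30.1 CPM in naive A, 303.4 CPM in naive B and 3.84 CPM in naive C, and at most 1.79 CPM in any activated library. A neutrophil list of 10 genes summed to 67.3 CPM in naive B and to at most 0.931 CPM in activated libraries, where 5 of the 10 were at 0 in all 9. Summed T cell markers, 13 genes in the table, ran from 404.8 to 816.2 CPM in activated and from 186.1 to 300 CPM in naive libraries. In the activated libraries nearly all of it was Thy1, with letter means of 404, 789 and 418 CPM, while the T cell receptor genes Cd3d and Cd3g had letter means of 0, 0.0912 and 0.586 CPM and 0, 0.455 and 0.703 CPM, Cd8a had 1.14, 4.75 and 1.14 CPM, and Themis was at 0 in all 9. In the naive libraries most of it was Cd2, at 168, 286 and 199 CPM. NK cell, myeloid, mast cell and megakaryocyte lists summed to at most 52.5 CPM in any activated library. Dendritic cell markers, a list of 9, summed to 69.3 to 248.8 CPM in activated and 9.23 to 16.6 CPM in naive libraries, most of it from the cytokine receptor gene Flt3 and from Zbtb46, while Clec9a and Clec10a were at 0 in all 12. The stromal and endothelial list was almost only Pecam1, at 285, 273 and 346 CPM in the naive libraries. A list of 12 marginal zone and B-1 B cell genes summed to 1642 CPM in naive A, 1269 CPM in naive B and 1956 CPM in naive C and to 217.7 to 407.3 CPM in activated libraries, with 5 members shared lower and 1, Bhlhe41, shared higher, median -0.47. The part of other cell types in the results was not tested.

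More genes were higher than lower in activated cells. The shared ones range from Socs2, Ccl22 and Ighe, at or near 0 counts in naive cells, to Fos, Cr2 and Icosl, which were abundant in naive cells and at most 18.9 CPM in any activated library. Of 16012 genes tested, 2102 (13.1%) were higher and 1428 (8.92%) were lower at an adjusted p under 0.05. In 1966 of the higher genes, 12.3% of those tested, every one of the 9 activated libraries lay above all 3 naive libraries, and these are called shared below. Shared lower genes, below all 3 naive libraries in all 9, numbered 1417, or 8.85%. The median log2 fold change was 2.13 over shared higher and -1.44 over shared lower genes, against 0.205 over all genes tested. In 814 shared higher and 268 shared lower genes the difference was 8-fold or more. No library of naive cells had a count for 431 of the shared higher genes, and 12 of the shared lower genes had no count in any activated library. A further 1601 genes lay above and 945 below in all 9 libraries without passing the test. These numbers moved with every unit left out, for shared higher genes to 1097 without naive A, 3215 without naive B, 2873 without naive C, 918 without activated A, 853 without activated B and 892 without activated C. Shared lower genes numbered 834, 2279, 1226, 701, 685 and 681 in the same order. With a unit left out, shared was judged over the remaining libraries only. In the plot of all genes, values are means in CPM on a log2 scale after adding 1.

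**Figure D1:**
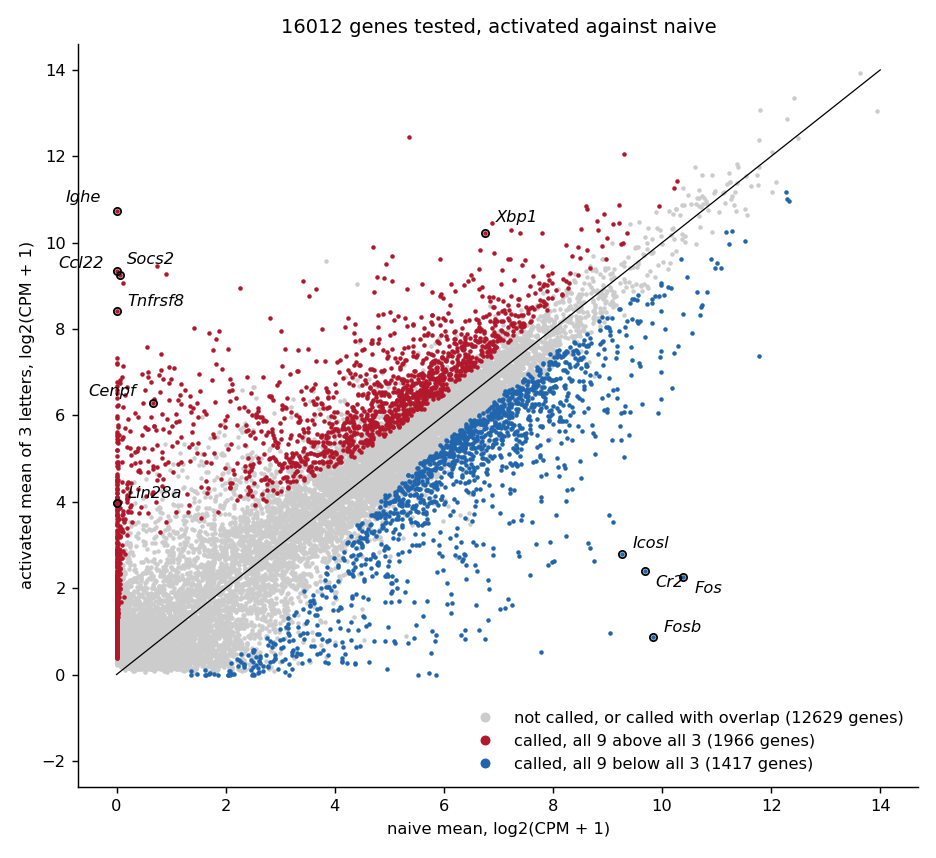
Mean level of each of 16012 genes in naive cells (x axis) and activated cells (y axis), both as log2(CPM + 1), with genes shared by all 9 activated libraries in red (1966 higher) and blue (1417 lower). Socs2, Tnfrsf8, Ccl22 and Ighe lie at the left edge, at or near 0 CPM in naive cells, while Fos, Fosb, Cr2 and Icosl lie at the lower right.

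In what follows activated values are the lowest, median and highest of 9 libraries, and naive values are those of A, B and C. Fold changes are log2, activated minus naive, with the standard error of the fit, and p-values are adjusted. For gene lists, numbers with a unit left out count members called, whether or not they were also shared. With no unit left out, every called list member was shared, except in the costimulatory and p53 lists. Of the 5 genes taken as markers 4 were higher and 1 lower. In the GENCODE annotation of GRCm38 they lie at chr10:95385362-95417180 (Socs2), chr4:145267137-145315164 (Tnfrsf8), chr8:94745590-94751699 (Ccl22), chr11:5520659-5525893 (Xbp1) and chr1:195136811-195176716 (Cr2). Socs2, a feedback inhibitor of cytokine receptors, was at 516, 639 and 824 CPM in activated cells and had no count in any naive library, at least 20728-fold higher against a floor of 3 counts over the naive group (adjusted p = 0.000273). Tnfrsf8, which encodes the activation receptor CD30, was at 249, 366 and 413 CPM and also had no naive count, at least 10884-fold higher (adjusted p = 0.000273). Both were thus undetected in the naive libraries and abundant in every activated one. The chemokine gene Ccl22, whose product attracts T cells through CCR4, was at 309.7, 700.0 and 838 CPM in activated and 0, 0 and 0.136 CPM in naive libraries (13.79 ± 0.83, adjusted p = 0.000273). Xbp1 was at 807, 1341 and 1518 CPM against 102, 111 and 109 CPM, a log2 fold change of 3.50 ± 0.26 (adjusted p = 0.000501). Cr2, the complement receptor CD21 of mature B cells, was at 1.61, 4.23 and 6.29 CPM against 882, 499.6 and 1086 CPM (-7.55 ± 0.43, adjusted p = 0.000273). No activated library overlapped a naive one for any of the 5. Socs2, Tnfrsf8, Ccl22 and Xbp1 also differed by letter among the activated libraries, with the highest letter mean 1.47, 1.58, 2.02 and 1.73 times the lowest, and Cr2 did not pass that test (adjusted p = 0.0513).

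**Figure D2:**
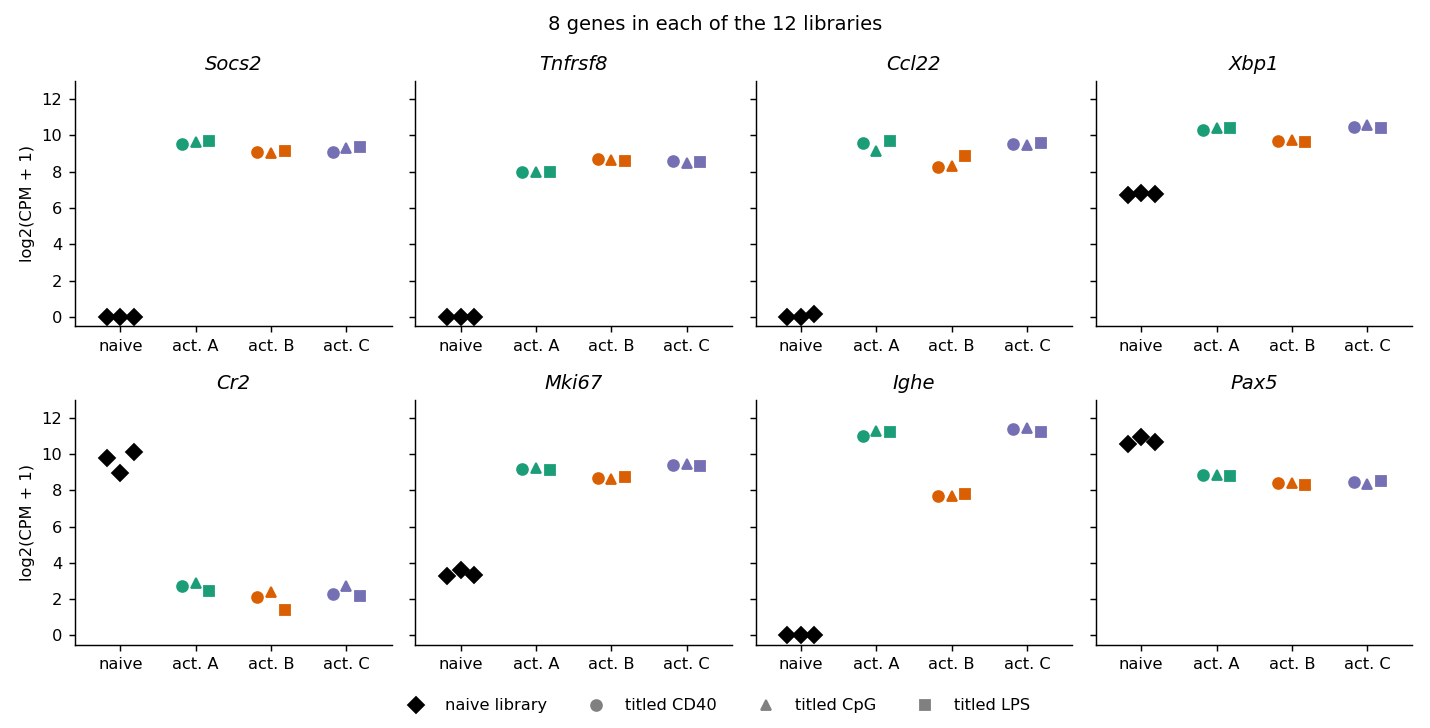
Level of 8 genes in each library as log2(CPM + 1), with naive libraries as diamonds and activated libraries by letter (colour) and titled stimulus (shape). In the panels of Socs2, Tnfrsf8, Ccl22, Xbp1, Mki67 and Ighe all 9 activated points lie above the naive ones, and in those of Cr2 and Pax5 all 9 lie below. Points of a letter lie close together, most clearly for Ighe.

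The cells kept the defining transcripts of the B lineage at lower levels. Cd79b, a signalling chain of the B cell receptor, was at 909, 1169.9 and 1552 CPM in activated and 1644, 2219.5 and 1937 CPM in naive libraries and did not pass the test (adjusted p = 0.109). Of 25 tested genes of B lineage identity, 12 were shared lower and 1, Pou2af1, was shared higher, and the median log2 fold change was -0.98. Pax5, the factor that maintains B cell identity, was at 311, 355 and 466.4 CPM against 1512, 1972 and 1611 CPM (-2.14 ± 0.22, adjusted p = 0.00144). Ebf1, which acts with it, fell by a log2 of 2.35, and Ptprc, which encodes CD45 and its B220 form, fell by 2.19. Fcrla and Blk were the lowest against naive cells, at log2 fold changes of -5.18 and -3.18. The coactivator gene Pou2af1 went the other way, to 1357, 1955 and 2468 CPM from 573, 518 and 674 CPM (1.71 ± 0.26). In bulk libraries such as these, fewer cells with a transcript and less of it per cell cannot be told apart.

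Genes of mitosis were higher almost without exception. Of 34 tested members of a list of mitosis and spindle genes, 30 were higher, all of them in all 9 libraries, and none was lower, with a median log2 fold change of 5.09. Mki67, the gene of the proliferation antigen Ki-67, was at 394, 573 and 689 CPM against 8.85, 11.3 and 9.04 CPM (5.86 ± 0.28, adjusted p = 0.000273). Top2a, the topoisomerase that untangles chromosomes, was at 424, 496 and 563 CPM against 13.8, 8.64 and 12.2 CPM (5.43 ± 0.25, adjusted p = 0.000273). Ccnb1, the mitotic cyclin that partners CDK1, was at 79.5, 101 and 147 CPM against 1.52, 0 and 1.29 CPM (6.83 ± 1.02, adjusted p = 0.00528). For each, the lowest activated library was far above the highest naive one. Cdc25c, the phosphatase that activates CDK1, had no naive count and was at 13.5, 21.6 and 26.4 CPM, at least 641-fold higher. The 4 members not called were Cdk1, Bub1, Knl1 and Cenpa, of which Cdk1, Bub1 and Cenpa were higher in naive B than in naive A and C. Cdk1 was at 0, 13.6 and 0.476 CPM in the naive libraries and at 79.4, 102 and 114 CPM in the activated ones. Without naive B all 34 were called, and with any other unit left out 21 to 27 were.

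Promoters of these genes are shown because cell cycle genes that peak in G2 and mitosis are known to be controlled through CCAAT boxes, bound by NF-Y, and through the cell cycle homology region with the core TTTGAA, bound by complexes that repress them in resting cells. Sequences of 250 bases before the RefSeq start site on GRCm38.p6 are printed 5′ to 3′ on the gene's strand, with every match of the motifs, on either strand, in capitals. Cdc20, Ccnb2 and Ube2c hold both, and in Cenpf only CCAAT was found in this window. The intervals are chr4:118437344-118437593, minus strand for Cdc20, chr9:70421555-70421804, minus strand for Ccnb2, chr2:164769679-164769928, plus strand for Ube2c, and chr1:189688087-189688336, minus strand for Cenpf.
Cdc20: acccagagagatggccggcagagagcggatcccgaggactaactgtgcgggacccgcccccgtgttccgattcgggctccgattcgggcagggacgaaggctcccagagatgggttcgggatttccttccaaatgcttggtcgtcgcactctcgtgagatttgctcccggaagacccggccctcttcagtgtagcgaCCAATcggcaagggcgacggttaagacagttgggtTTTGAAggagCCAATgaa
Ccnb2: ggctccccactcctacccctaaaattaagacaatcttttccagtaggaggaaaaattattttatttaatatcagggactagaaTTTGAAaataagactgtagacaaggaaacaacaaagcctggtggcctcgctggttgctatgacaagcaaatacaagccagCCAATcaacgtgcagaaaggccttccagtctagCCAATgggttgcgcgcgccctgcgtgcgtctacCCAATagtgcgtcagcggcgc
Ube2c: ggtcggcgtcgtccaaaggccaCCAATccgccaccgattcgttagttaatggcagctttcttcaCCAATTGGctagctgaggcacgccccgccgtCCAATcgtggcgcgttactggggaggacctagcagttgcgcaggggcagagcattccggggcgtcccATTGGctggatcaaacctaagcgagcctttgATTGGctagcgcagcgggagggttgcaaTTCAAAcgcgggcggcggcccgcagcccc
Cenpf: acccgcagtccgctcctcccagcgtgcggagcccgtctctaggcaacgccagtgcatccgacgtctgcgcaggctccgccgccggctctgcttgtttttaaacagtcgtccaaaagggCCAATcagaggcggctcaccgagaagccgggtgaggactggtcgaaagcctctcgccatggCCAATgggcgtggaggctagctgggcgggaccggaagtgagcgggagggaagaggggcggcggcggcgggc
Cdc20, an activator of the anaphase-promoting complex, rose by a log2 of 4.46 ± 0.27, and Ube2c, the ubiquitin-conjugating enzyme of that complex, by 7.43 ± 1.04. For Cenpf, a kinetochore protein, the increase was 7.04 ± 0.98. Ccnb2, a mitotic cyclin, rose by 5.47 ± 1.14, a call lost without activated B or C (adjusted p = 0.0512 to 0.0575). Of the 34 list members 28 were matched to a promoter in the RefSeq table by symbol, with 30 promoters. CCAAT stood in 23 of the 30 (76.7%) and in 33.8% of all 32851 promoters of this length, and TTTGAA in 11 (36.7%) against 16.0%. Among promoters of tested genes the shares were 35.2% for CCAAT and 11% for TTTGAA. The 2 motifs did not overlap in any promoter of the list. These matches are descriptions of the letters in this window.

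DNA replication and G1 genes moved in the same direction. Of 38 tested genes of replication and nucleotide synthesis, 32 were shared higher and 1 shared lower, with a median log2 fold change of 2.22. Rrm2, the regulated subunit of ribonucleotide reductase, was at 169.6, 259 and 316 CPM against 6.84, 9.65 and 4.89 CPM (5.15 ± 0.36, adjusted p = 0.000388). Cdc6, which loads the replicative helicase onto origins, was at 33.9, 51.7 and 70.2 CPM against 0.652, 0 and 0.816 CPM (6.70 ± 1.03, adjusted p = 0.00576). Of the helicase subunits, Mcm6 rose by 2.77 ± 0.22 and Mcm3 by 2.60 ± 0.19. The member that fell was Cdt1, which licenses origins, at 50.9, 60.0 and 76.1 CPM against 109.8, 142 and 95.2 CPM (-0.87 ± 0.20), and its call was lost without naive A, or activated A, B or C (adjusted p = 0.0748 to 0.0999). Among 19 tested G1 cyclins, their kinases and inhibitors, 9 were shared higher and none lower, median 0.72. Ccnd2, the D-type cyclin most associated with B cells, was at 362, 605 and 684 CPM against 32.2, 30.5 and 34.2 CPM (4.12 ± 0.23, adjusted p = 0.000273). Several inhibitors of the cell cycle rose as well. Cdkn1a, which encodes p21, was at 109, 188 and 205 CPM against 1.79, 0 and 0.476 CPM (7.80 ± 1.07, adjusted p = 0.00382). Cdkn2a, which encodes p16INK4A and p19ARF, had no naive count and was at 2.501, 19.95 and 23.2 CPM, at least 482-fold higher, with letter means of 3.83, 20.7 and 20.7 CPM for A, B and C.

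Many but not all response genes of IL-4 and related cytokines were higher in libraries of all 3 titles. Of 28 tested members of this list, 15 were shared higher, 3 were shared lower and 10 were not called, with a median log2 fold change of 2.62. Cish, like Socs2 an inhibitor of cytokine signalling, was at 207, 259 and 315 CPM against 0, 4.86 and 0.204 CPM (7.31 ± 1.49, adjusted p = 0.0168), which was not called with no filter on low counts (adjusted p = 0.0951). Il4ra, the IL-4 receptor chain, was at 1459, 1546 and 1951 CPM against 381, 658 and 429.7 CPM (1.76 ± 0.27, adjusted p = 0.00562). The increase of Il4ra, as for any shared gene, was present in each of the 9 libraries, including those titled CpG and LPS. Which signal it followed was not tested. Stat5a rose by 2.45 ± 0.38 and the survival kinase gene Pim2 by 2.80 ± 0.36. Il2ra, which encodes the IL-2 receptor chain CD25, rose by 6.08 ± 1.17, and its call was lost without activated B (adjusted p = 0.0515). Members that fell included Jak1 and Il2rg, at log2 fold changes of -0.91 and -1.01, each a call that did not hold with every unit left out. These were for Jak1 lost without naive A or C, or activated A, B or C (adjusted p = 0.0803 to 0.122) and for Il2rg lost without naive C, or activated A, B or C (adjusted p = 0.0644 to 0.141). The 3 lower calls became 5 without naive B, 1 without naive C or activated C, and 0 without activated A or activated B. Of the 28 members 23 were matched to a RefSeq promoter, with 28 promoters. A STAT motif TTCNNNGAA, on either strand, stood in 4 of these 28 promoters (14.3%), against 7.02% of all promoters and 5.93% of those of tested genes. The form with 1 more base between its ends, which STAT6 is known to prefer, stood in 1 (3.57%), against 5.85% and 4.69%. None of the members holding one, Bcl6, Ccl17 and Socs3, was called.

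Surface molecules of activation changed in both directions. Among 21 TNF receptors and ligands, 7 were shared higher and 2 shared lower, median -0.12, and the 7 became 4 without naive A, 4 without activated A, 2 without activated B and 3 without activated C. The 2 lower genes became 1 without naive A, naive C or activated A and 0 without activated C. Besides Tnfrsf8, Fas, the death receptor, was at 34.3, 76.7 and 103 CPM against 3.42, 14.2 and 5.00 CPM (3.30 ± 0.60, adjusted p = 0.0112). Cd40, the receptor stimulated here by antibody in the libraries titled CD40, was lower at 68.3, 94.6 and 129 CPM against 165, 229.6 and 202 CPM (-1.02 ± 0.24), and its call was lost without naive A or C, or activated A or C (adjusted p = 0.0541 to 0.0952). Of 20 costimulatory and checkpoint molecules 8 were higher, 7 of them shared, and 3 were shared lower, with a median of 1.31, and the 8 became 5 without activated B or activated C and the 3 became 1 without activated B. Cd44, the hyaluronan receptor of activated lymphocytes, was at 689, 823 and 942 CPM against 36.8, 14.1 and 45.1 CPM (4.72 ± 0.46, adjusted p = 0.00117). Cd86, the ligand of CD28, was at 128, 192 and 216 CPM against 40.2, 37.4 and 32.1 CPM (2.29 ± 0.22, adjusted p = 0.00115). Ctla4, an inhibitory receptor best known from T cells, was at 19.5, 36.5 and 64.4 CPM against 0, 0 and 0.0680 CPM (1926-fold higher, 95% counting interval 533 to 15902, adjusted p = 0.000754). Both CD28 ligand and inhibitory receptor transcripts were therefore higher in all 9 libraries. Icosl, the ligand of ICOS, went the other way, from 549, 572 and 728 CPM to 0.310, 0.695 and 18.9 CPM (-6.67 ± 1.46, adjusted p = 0.0211). Its call was lost without naive A, or activated B (adjusted p = 0.0516 to 0.0552), and its letter means were 16.5, 0.810 and 0.513 CPM.

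Class switch transcripts were abundant and varied widely between letters. Ighe, the constant region of IgE, had no naive count and letter means of 2311, 210.4 and 2590.0 CPM, at least 54467-fold higher overall (adjusted p = 0.00485), a call lost with no filter on low counts (adjusted p = 0.0825). Letter B was thus far below the others, and the highest letter mean was 12.3 times the lowest. Ighg1, the constant region of IgG1, was at 2938, 4234 and 10327 CPM against 41.5, 73.6 and 4.52 CPM (7.15 ± 1.14, adjusted p = 0.00667). Igha was also called higher, at 23.7, 41.2 and 292 CPM against 18.03, 6.07 and 6.19 CPM, a call lost without naive A, B or C, or activated B or C (adjusted p = 0.0592 to 0.0985). Ighd, which naive cells co-express with IgM, fell from 3395, 2940.0 and 4195 CPM to 96.4, 196 and 210.0 CPM (-4.37 ± 0.34, adjusted p = 0.000545). Of 15 tested immunoglobulin constant and switch genes, 4 were shared higher and 1 shared lower, median 1.39, with 2 lower without activated C. All 15 differed by letter, against 44.0% of all genes tested for letter. Reads from constant regions of high similarity may be split between them, and reads of Ighe and Ighg1 can come from sterile transcripts as well as from switched ones. Of 24 tested germinal centre genes, 7 were shared higher and 3 shared lower, median 1.38, and 13 were higher and 5 lower without naive B. Neil1 and Ezh2 were among the higher ones, at 3.11 and 3.66, while Bcl6, the master regulator of the germinal centre, was not called, at 18.9, 39.5 and 51.4 CPM against 69.3, 56.7 and 116 CPM.

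Most genes of resting cells fell. Of 29 tested genes of follicular cells and quiescence, 19 were shared lower and 1, Satb1, shared higher, with a median log2 fold change of -1.80, and the 1 became 2 without naive A and 3 without naive B. S1pr1, the receptor that lets lymphocytes leave lymphoid organs, fell from 283, 124 and 314 CPM to 1.14, 5.83 and 8.07 CPM (-5.62 ± 0.66, adjusted p = 0.00215). Klf2, a quiescence factor that controls S1pr1, fell from 1203, 1572 and 719.9 CPM to 44.4, 102 and 149 CPM (-3.54 ± 0.43, adjusted p = 0.00251). Both were below every naive library in every activated library. In the list of homing and chemoattractant receptors, 9 of 25 were shared lower and 2 shared higher, median -0.90. The integrin chain Itgb7 at -5.40 and the chemokine receptor Ccr6 at -3.92 were among those lower. The 2 became 1 without naive A or activated A, 4 without naive B and 0 without activated B or activated C. Cxcr5, the follicular homing receptor, was not called, at 245, 278 and 359 CPM against 358, 155 and 408 CPM.

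Immediate early genes, which respond within minutes to many stimuli, were high in naive cells. Of 26 tested, 17 were shared lower and 3 shared higher in activated cells, with a median of -2.70. The 3 became 5 without naive B, 1 without activated A and 0 without activated B. Fos was at 2021, 1406 and 602 CPM in the naive libraries and at 1.01, 2.90 and 11.2 CPM in activated ones (-8.43 ± 0.67, adjusted p = 0.00055). Fosb was at 1144, 1338 and 252 CPM against 0, 0.676 and 1.78 CPM (-10.07 ± 1.00, adjusted p = 0.00123). Egr1, a zinc finger factor of the same class, was at 580.3, 598 and 124 CPM against 22.1, 30.02 and 49.2 CPM (-3.67 ± 0.60, adjusted p = 0.00737). Naive C was lowest of the naive libraries for these 3 genes and still above every activated library. Fosl2, an AP-1 subunit of sustained activation, rose to 14.97, 33.7 and 149 CPM from 0.760, 0 and 0.204 CPM (7.56 ± 1.33), a call lost without activated B (adjusted p = 0.0504). An AP-1 motif, TGANTCA, stood in 0 of 25 promoters, matched to 21 of the 26 members. It stood in 6.75% of all promoters and in 4.3% of those of tested genes. Heat shock genes split in 2 groups, with Hspa1a, Hspa1b and Dnajb1 shared lower and 6 chaperonin and mitochondrial chaperone genes of 16 tested shared higher, median 0.67. The 6 became 1 without naive A, 3 without activated A and 2 without activated B or activated C. With DESeq2 as the test, 1 member of the list was called lower in place of 3. Hspa1b was at 1383, 89.2 and 107 CPM in the naive libraries, so that most of its naive mean came from naive A, and at 0.166, 0.844 and 1.97 CPM in activated ones, and neither it nor Hspa1a was called with no filter on low counts (adjusted p = 0.056 and adjusted p = 0.0695). The 2 inducible Hsp70 genes are near-identical copies whose reads may be shared.

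Many components of antigen receptor signalling, and some of antigen presentation, were lower. Of 28 tested genes of B cell receptor signalling, 16 were shared lower and 1, the tetraspanin gene Cd81, shared higher at 1.21, a call lost without naive A, or activated A, B or C (adjusted p = 0.0568 to 0.111). The median was -0.998. Syk, the kinase that starts the cascade, fell from 1052, 1172 and 1351 CPM to 82.9, 183 and 259 CPM (-2.76 ± 0.39, adjusted p = 0.00424). Prkcb, the protein kinase C isoform of this pathway, fell from 308, 244 and 314 CPM to 57.7, 63.0 and 107 CPM (-1.92 ± 0.25, adjusted p = 0.00334). Fcgr2b, the inhibitory Fc receptor, fell by 3.20, so both activating and inhibitory members were lower. Of 18 genes of class II presentation, 9 were shared lower and none higher, median -0.96, and the 9 became 4 without activated B or activated C, with 1 higher without naive B. Ciita, the transactivator of class II genes, fell from 657, 631 and 643 CPM to 209, 232 and 258 CPM (-1.44 ± 0.16, adjusted p = 0.00152). H2-Ob, part of the inhibitor of peptide loading, fell from 1566, 1742 and 1641 CPM to 208, 326 and 398 CPM (-2.32 ± 0.22, adjusted p = 0.000976). Cd74, the invariant chain, remained among the most abundant transcripts, at 7873, 8281 and 9245 CPM against 11805, 21248 and 13845 CPM, and was not called. Of 23 Toll-like receptor genes and partners, 7 were shared lower and 1, the adaptor gene Ticam2, shared higher at 4.59, a call lost without naive A or C, or activated A, B or C (adjusted p = 0.0536 to 0.121). With naive B left out 3 were higher, and the median was -0.21. Cd180 and Tlr1 fell by 2.77 and 2.47. Tlr9, the CpG receptor, was at 15.6, 25.6 and 33.6 CPM against 70.99, 21.4 and 80.3 CPM, and Tlr4, the LPS receptor, at 0.723, 1.73 and 7.68 CPM against 18.4, 8.91 and 17.7 CPM, neither called. Among 25 NF-kB genes, 5 were shared higher and 7 shared lower, median -0.26, the 5 becoming 3 without naive A or activated B and 8 without naive B, and the 7 becoming 4 without naive A and 1 without activated A or activated C. Nfkb1 rose by 1.37 ± 0.20, and Nfkbid, an atypical inhibitor, fell by 3.29.

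Genes of several metabolic pathways rose. In cholesterol synthesis and uptake 16 of 23 tested genes were shared higher and none lower, with a median of 2.24, and 16 to 21 were called with any unit left out. Hmgcs1, which makes the HMG-CoA that feeds the pathway, was at 162, 181 and 212 CPM against 27.7, 10.1 and 28.3 CPM (3.11 ± 0.40, adjusted p = 0.00285). Msmo1, a sterol oxidase of the later steps, was at 135, 156 and 168 CPM against 12.1, 11.1 and 16.3 CPM (3.58 ± 0.22, adjusted p = 0.000273). Abca1, the exporter, was in contrast among the largest decreases, at 0, 0.801 and 1.71 CPM against 143, 75.2 and 103 CPM (-7.01 ± 0.34, adjusted p = 0.000273). These synthesis transcripts were thus higher and the export transcript lower in all 9 libraries. In fatty acid synthesis 9 of 13 were shared higher, median 1.59, and 5 without any 1 of the activated letters. Fads2, a desaturase, had no naive count and was at 33.8, 51.4 and 56.5 CPM. Scd1 fell, from 1068, 763 and 1138 CPM to 317, 480.0 and 521 CPM, while its relative Scd2 rose by 3.75 ± 0.23, and the call of Scd1 was lost without naive A, or activated A, B or C (adjusted p = 0.0536 to 0.0753). In glycolysis and the hypoxia response 18 of 26 were shared higher and none lower, with a median of 2.37. All 18 also differed by letter, as did 67% of all shared higher genes. Pgk1, a glycolytic kinase, was at 1031, 1163 and 2137 CPM against 127, 129 and 96.7 CPM (3.60 ± 0.31, adjusted p = 0.000703). Egln3, an oxygen sensor induced by HIF, was at 18.9, 38.2 and 120.2 CPM against 0, 0 and 0.0680 CPM (2592-fold higher, 95% counting interval 718 to 21406, adjusted p = 0.0012). Of 29 respiratory chain genes 12 were shared higher, with a median of 0.73 over the list. The number called higher was 23 without naive B, 6 without naive A, 7 without naive C and 6 without any 1 of the activated letters. Serine, folate and amino acid genes gave 9 of 24 shared higher, median 1.14, and 17 without naive B. The 1 that fell was Atf4, the activator of several of these genes, at -0.80, and it was a call lost without naive A, or activated A, B or C (adjusted p = 0.0812 to 0.124). Mthfd2, the mitochondrial folate enzyme, rose by 2.84 ± 0.27 and Psat1, of serine synthesis, by 3.07 ± 0.20. Of 32 genes of ribosome biogenesis and MYC targets 10 were shared higher, median 0.43, and 3 without naive A or any activated letter and 6 without naive C. The 1 that fell was Mnt, a MYC antagonist, at -0.90, lost without naive A or C, or activated A, B or C (adjusted p = 0.108 to 0.154), and Myc itself was not called, at 139, 189 and 269 CPM against 197, 431 and 133 CPM.

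Genes of the unfolded protein response and secretion rose with Xbp1. Of 27 tested, 17 were shared higher and none lower, with a median of 1.11, and the 17 became 8 without naive A, 10 without naive C and 9 without activated A or activated C. Mzb1, a chaperone of immunoglobulin assembly, was at 849, 1097 and 1741 CPM against 149, 191 and 165 CPM (2.86 ± 0.28, adjusted p = 0.00115). Sdf2l1 and Manf, of the endoplasmic reticulum, rose by 2.69 ± 0.36 and 2.34 ± 0.32. Of 20 tested plasma cell genes 6 were shared higher and 1, Cxcr4, was shared lower at -2.25, a call lost without naive A, or activated B or C (adjusted p = 0.0548 to 0.0595), and the median was 1.90. The regulator Prdm1 and the joining chain Jchain were not called, with letter means of 10.2, 3.64 and 71.7 and 89.4, 17.8 and 2173 CPM. Both were highest in letter C. In the BCL2 family and its partners 9 of 18 were shared higher and 1 lower, median 0.79, with 5 higher without activated B and 3 lower without naive B. Bcl2, the survival gene of resting cells, fell from 110.3, 94.8 and 120.2 CPM to 20.7, 39.6 and 46.9 CPM (-1.56 ± 0.27, adjusted p = 0.00893). Bcl2l1, which encodes the survival protein BCL-XL, rose to 76.5, 92.0 and 109 CPM from 2.55, 0.135 and 6.80 CPM (4.91 ± 1.05), and its call was lost without naive A, or activated B (adjusted p = 0.0594 to 0.0707). The proapoptotic gene Bcl2l11 rose by 2.41 ± 0.19. Of 20 p53 targets 11 were higher, 10 of them shared, and 1 was lower, median 2.01, the 11 becoming 6 without naive A and 5 without activated A or activated B. Phlda3, a p53 target that restrains AKT, was at 36.4, 54.3 and 70.1 CPM against 0, 0 and 0.0680 CPM (2513-fold higher, 95% counting interval 696 to 20752, adjusted p = 0.000415). Sesn1, another target, fell from 165, 112 and 183 CPM to 7.68, 10.7 and 14.8 CPM (-3.80 ± 0.29, adjusted p = 0.000503).

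Cytokine, chromatin and pluripotency lists gave smaller sets. Among 18 cytokines and chemokines 5 were shared higher and 6 shared lower, median -0.38, the 6 becoming 2 without activated A, 3 without activated B and 1 without activated C. Csf1, the macrophage growth factor, was at 242, 294 and 377 CPM against 6.08, 6.41 and 5.57 CPM (5.70 ± 0.22, adjusted p = 0.000273). Il6 had no naive count and was at 1.89, 12.96 and 20.6 CPM, at least 375-fold higher. In chromatin regulators 7 of 30 were shared higher and 6 shared lower, with a median of -0.09, the 6 becoming 1 without naive A, 3 without naive C, 2 without activated A or activated B and 1 without activated C. Uhrf1, which recruits maintenance DNA methylation, rose by 4.37 ± 0.24, Ezh2, the Polycomb methyltransferase, by 3.66 ± 0.31 and Dnmt1 by 1.45 ± 0.28. Cbx7, a Polycomb reader, fell by 1.76. The medium was made for embryonic stem cells, and of 21 pluripotency genes only 6 passed the filter on low counts, of which 1 was shared higher, 2 without naive B or naive C, and 2 were shared lower, median -1.93. Lin28a, an RNA-binding protein of early embryos and stem cells, had no naive count and was at 11.8, 13.6 and 18.8 CPM, at least 467-fold higher (adjusted p = 0.00179). S100, annexin and galectin genes gave 4 of 18 shared higher and 5 shared lower, with a median of -0.11. The 4 became 0 without naive A, 2 without activated A and 1 without activated B or activated C, and the 5 became 2 without naive A or activated C and 3 without activated A or activated B. Lgals1, which encodes galectin-1, rose by 5.67 ± 1.29, a call lost without naive A, or activated B or C (adjusted p = 0.0707 to 0.0807), and Crip1, a LIM domain gene kept in this list, fell from 114, 208 and 113 CPM to 6.25, 9.02 and 14.2 CPM (-3.76 ± 0.37, adjusted p = 0.00123). Klf4 fell from 197, 135 and 59.2 CPM to 0.310, 0.885 and 4.87 CPM (-6.09 ± 0.97, adjusted p = 0.00667).

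**Figure D3:**
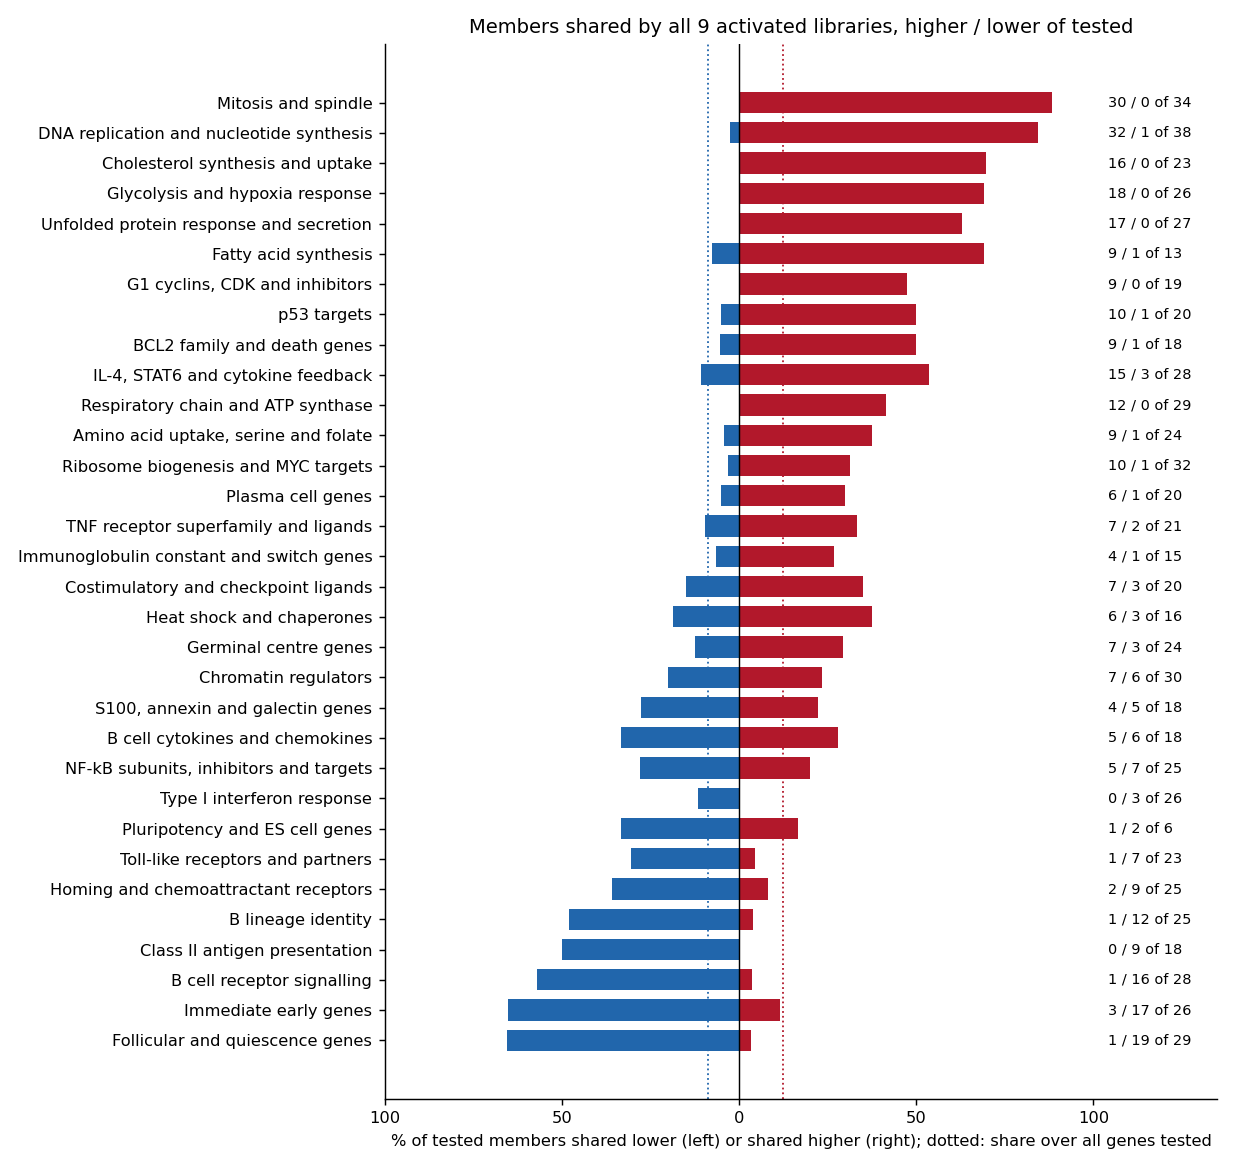
Share of tested members of 32 gene lists that were shared higher (right, red) or shared lower (left, blue) in all 9 activated libraries, in percent, with the numbers at the right. Dotted lines mark the shares over all 16012 genes, 12.3% and 8.85%. Mitosis (30 of 34) and replication (32 of 38) stand at the top, and follicular (19 of 29 lower) and immediate early genes (17 of 26 lower) at the bottom.

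Ranked by fitted log2 fold change among protein-coding shared genes of at least 10 CPM, the first 15 increases were all genes with no naive count. Their fitted values are no bounds, so this order is not one of measured size, and genes with a few naive counts such as Ccl22 may have changed as much. After Socs2 and Tnfrsf8 came Htr7, a serotonin receptor, at 112, 163 and 201 CPM (at least 5079-fold), and Vdr, the vitamin D receptor, at 64.5, 126 and 256 CPM (at least 4691-fold). They were followed by Lad1, H2-M5, Mpzl2, Il1r2, Batf3, Gpr15, Ido2, Ccn3, Ido1, Fads2 and Ccr4, with bounds from at least 4672-fold down to at least 1441-fold higher. Il1r2 encodes the IL-1 decoy receptor, Ido1 and Ido2 enzymes of tryptophan breakdown, and Ccr4 the receptor of CCL22. Of the 15 genes only Socs2, Htr7, H2-M5, Tnfrsf8 and Fads2 had letter means within a factor of 2 of each other. Batf3 spanned the widest range, with letter means of 18.5, 190.5 and 64.2 CPM. With no filter on low counts Batf3, Mpzl2 and Ido2 were not called (adjusted p = 0.0926, adjusted p = 0.0695 and adjusted p = 0.0593). The largest decreases were led by the haemoglobin genes Hba-a1 and Hbb-bs, at 9.66, 125 and 0.578 CPM and 18.2, 136 and 1.80 CPM in the naive libraries, which move with the erythroid list and rest mostly on naive B. Hba-a1 had no count in any activated library, at least 4052-fold lower, and these copies may share reads with their neighbours. Then came Fosb, Hspa1b, Hspa1a, Nxpe2, Fos, Cr2, Abca1, Cyp27a1, Hs3st1, Ifi213, Icosl, Ifit3 and Gcnt1, with fitted log2 fold changes from -10.07 to -6.51. Cyp27a1, which oxidises cholesterol, was at 0, 0.338 and 1.32 CPM against 62.1, 43.5 and 54.2 CPM (-7.01 ± 0.80, adjusted p = 0.0019). Gcnt1, a glycosyltransferase that branches O-glycans, was at 0.310, 0.924 and 2.47 CPM against 129.6, 91.1 and 77.7 CPM (-6.51 ± 0.46, adjusted p = 0.000415). Some of these calls did not hold with every unit left out. They were for Hba-a1 lost without naive A, or activated A, B or C (adjusted p = 0.0722 to 0.0914), for Hbb-bs lost without activated A, B or C (adjusted p = 0.0524 to 0.0613), for Ifi213 lost without naive A or C, or activated A or B (adjusted p = 0.0573 to 0.0688) and for Ifit3 lost without naive A or C, or activated B (adjusted p = 0.0503 to 0.0885).

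The level of many shared genes differed by letter. Among the activated libraries 6919 of 15727 genes, or 44.0%, differed by letter with titled stimulus as a term, and 3205 did so between A and C alone, without activated B. Of the shared higher genes 1318 of 1966 (67%) differed by letter and 360 of these had letter means more than 2-fold apart. Of the 1359 shared lower genes that could be tested, 753 (55.4%) did, 138 of them more than 2-fold. The share among the 15273 genes tested both ways was 44.4%. The median ratio of the highest to the lowest letter mean was 1.41 in shared higher genes. In these counts the activated libraries of a letter may come from shared cells, and the test has the spread left within letter and stimulus as its error.

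Other changes varied little between letters. Among shared protein-coding genes of at least 10 CPM, 56 higher and 57 lower genes changed at least 8-fold and were not called by letter. Cenpf had letter means of 75.5, 78.0 and 77.6 CPM and Ccnf, a cyclin that forms a ubiquitin ligase, of 65.3, 64.4 and 64.3 CPM. Among the 10 higher genes with the least spread between the 9 libraries were Cenpf, Pros1, Ccnf, Dlgap5, Kif22, Arhgap19, Cenph, Kif18b and Prr11. Apart from Pros1, which encodes the anticoagulant protein S, most are known for the cell cycle. These genes were picked for their low spread. In the whole mitosis list 67.6% of genes differed by letter, against 44.4% of all genes tested both ways. The calls of Ccnf, Kif22 and Prr11 did not hold with every unit left out, and were for Ccnf lost without naive A, or activated A, B or C (adjusted p = 0.0726 to 0.0834), for Kif22 lost without naive A or C, or activated A, B or C (adjusted p = 0.0857 to 0.124) and for Prr11 lost without activated A, B or C (adjusted p = 0.0554 to 0.0654). Pros1 was at 129.5, 136 and 151 CPM against 0, 0 and 0.272 CPM (10.68 ± 0.87, adjusted p = 0.000584). The 10 lower genes of least spread were Add3, Nuak2, Rgs14, Traf5, Hivep2, Mylip, Ccr6, Pgap1, Ciart and St6galnac2. Add3, a component of the membrane skeleton, was at 39.4, 43.0 and 52.2 CPM against 511, 293 and 505 CPM (-3.25 ± 0.26, adjusted p = 0.00055), and Traf5, an adaptor of TNF receptors, was at 13.7, 17.2 and 22.0 CPM against 153, 149.6 and 141 CPM (-3.04 ± 0.16, adjusted p = 0.000273). Mylip, an E3 ubiquitin ligase, fell from 204, 143 and 266 CPM to 5.27, 5.95 and 10.4 CPM (-4.79 ± 0.32, adjusted p = 0.000371). The call of Ciart, a circadian repressor gene, was lost without activated A, B or C (adjusted p = 0.0686 to 0.0891).

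**Figure D4:**
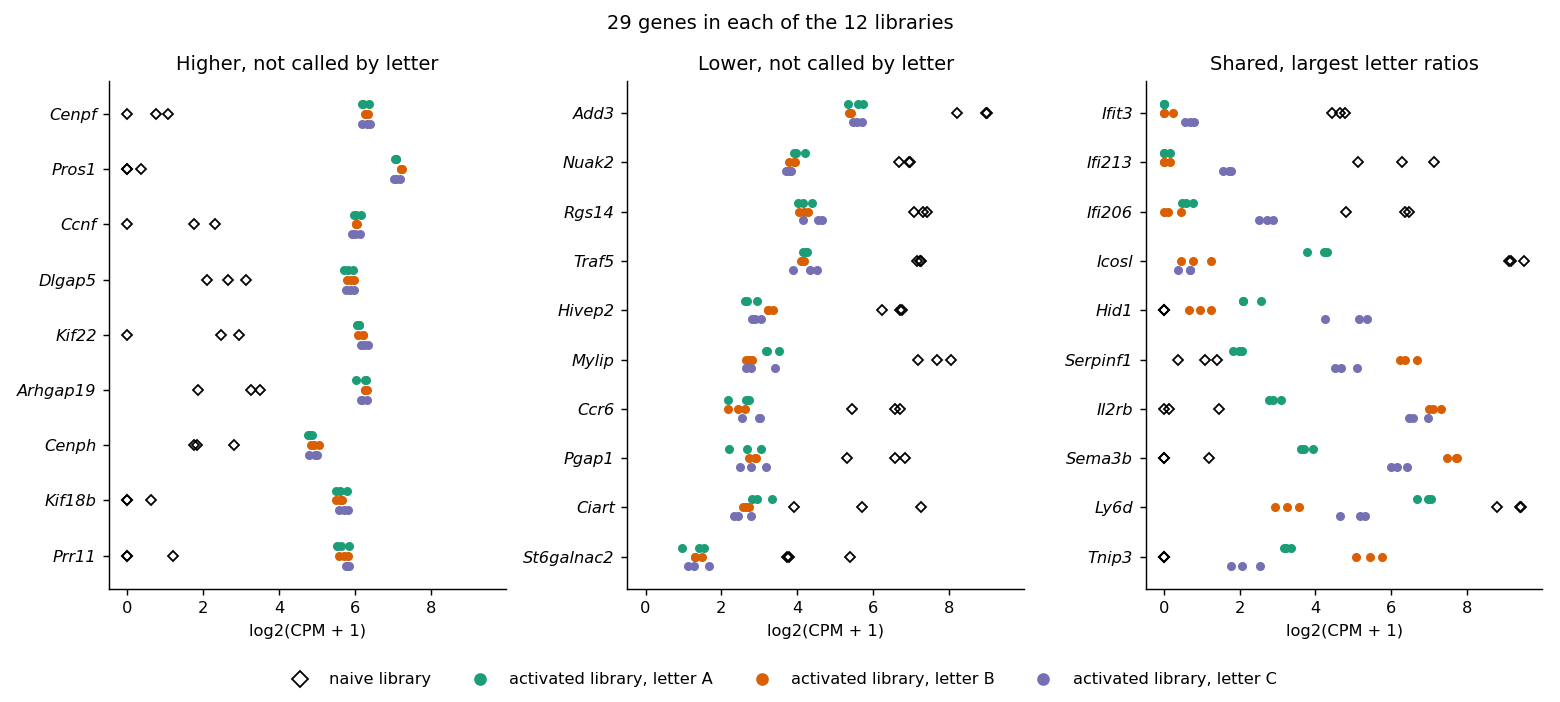
Level of 29 genes in each library as log2(CPM + 1), with naive libraries as open diamonds and activated libraries as points coloured by letter. In the left and middle panels the 9 activated points of a gene nearly coincide, as for Cenpf and Traf5, and in the right panel they split by letter while staying on 1 side of the naive libraries, as for Il2rb and Ly6d.

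A further set kept its direction at very different levels. The 10 shared genes with the largest letter ratios were Ifit3, Ifi213, Ifi206, Icosl, Hid1, Serpinf1, Il2rb, Sema3b, Ly6d and Tnip3. Il2rb, the beta chain of the IL-2 and IL-15 receptors, had letter means of 6.57, 139 and 102 CPM against 0, 0.101 and 1.73 CPM in naive cells. Serpinf1, a secreted serpin, had letter means of 2.92, 85.5 and 26.4 CPM against 1.63, 1.11 and 0.306 CPM. Letter A was low in both. Ly6d, a surface protein of B lineage cells, had letter means of 119, 8.68 and 32.6 CPM against 441, 686 and 668 CPM, and here letter A was the least changed. Hid1, which takes part in secretory granule formation, had no naive count and letter means of 3.80, 0.968 and 30.9 CPM. The 3 interferon-induced genes Ifit3, Ifi213 and Ifi206 were below naive cells in every library and highest in letter C. Of these 10 genes none kept its call with every unit left out. The calls were for Il2rb lost without naive A or B, or activated B or C (adjusted p = 0.0606 to 0.0945), for Serpinf1 lost without naive A, B or C, or activated B or C (adjusted p = 0.0584 to 0.105), for Ly6d lost without naive A, B or C, or activated C (adjusted p = 0.0625 to 0.108), for Hid1 lost without naive A or B, or activated C (adjusted p = 0.0617 to 0.1) and for Ifi206 lost without naive A or C, or activated A or B (adjusted p = 0.0673 to 0.108). Those of Sema3b and Tnip3 were lost without activated B (adjusted p = 0.0943) and lost without activated B (adjusted p = 0.0556).

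Letters differed by gene group as well as by gene. Over all genes called by letter and tested against naive cells, 1987 were highest in A, 2557 in B and 2230 in C, and the counts by list are given beside these. All 26 tested genes of the type I interferon response differed by letter and all 26 were highest in C, while the median difference of activated from naive cells was -0.66. Isg15, a ubiquitin-like effector, had letter means of 1.47, 1.76 and 26.1 CPM against 6.30, 9.45 and 7.21 CPM, and Irf7, the regulator that amplifies the response, of 4.77, 5.38 and 52.3 CPM against 40.4, 47.1 and 55.8 CPM. Median log2 differences from naive cells over the 26 genes, with 1 CPM added, were -1.71 in A, -1.76 in B and 0.29 in C. Of the 26, 3 passed the test against naive cells, all lower and Irf9 and Ifit3 among them, and the 3 became 1 without naive A or activated A, 0 without activated B and 12 without activated C. Over all genes tested 8.92% were called lower, and 3 of 26 is near that share. In the unfolded protein response 25 of 27 genes were highest in C and 25 lowest in B, and 15 of the 18 plasma cell genes that differed by letter were highest in C. Igkc, the kappa light chain constant region, had letter means of 4667, 3090.2 and 18209 CPM and Ighm, that of IgM, of 3879, 3701 and 23860.0 CPM. Most secretory, immunoglobulin and interferon genes were thus highest in letter C. In glycolysis and hypoxia 21 of the 25 genes that differed by letter were highest in B, with Aldoa at 1380.1, 2612 and 1268 CPM and Slc16a3, a lactate exporter, at 81.8, 212 and 72.7 CPM. Of the 21 NF-kB genes that differed by letter 15 were highest in B. Costimulatory genes were highest in A in 12 of 20. By contrast, in cholesterol synthesis the median ratio of the highest to the lowest letter was 1.23 after adding 1 CPM, and in mitosis it was 1.25, although 20 of 23 mitosis genes called by letter were highest in C. Other lists had ratios as low, at 1.22 for the respiratory chain and for chromatin regulators and 1.24 for fatty acid synthesis and class II presentation. Of cholesterol genes 65.2% and of mitosis genes 67.6% still differed by letter, against 44.4% over all genes tested both ways.

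**Figure D5:**
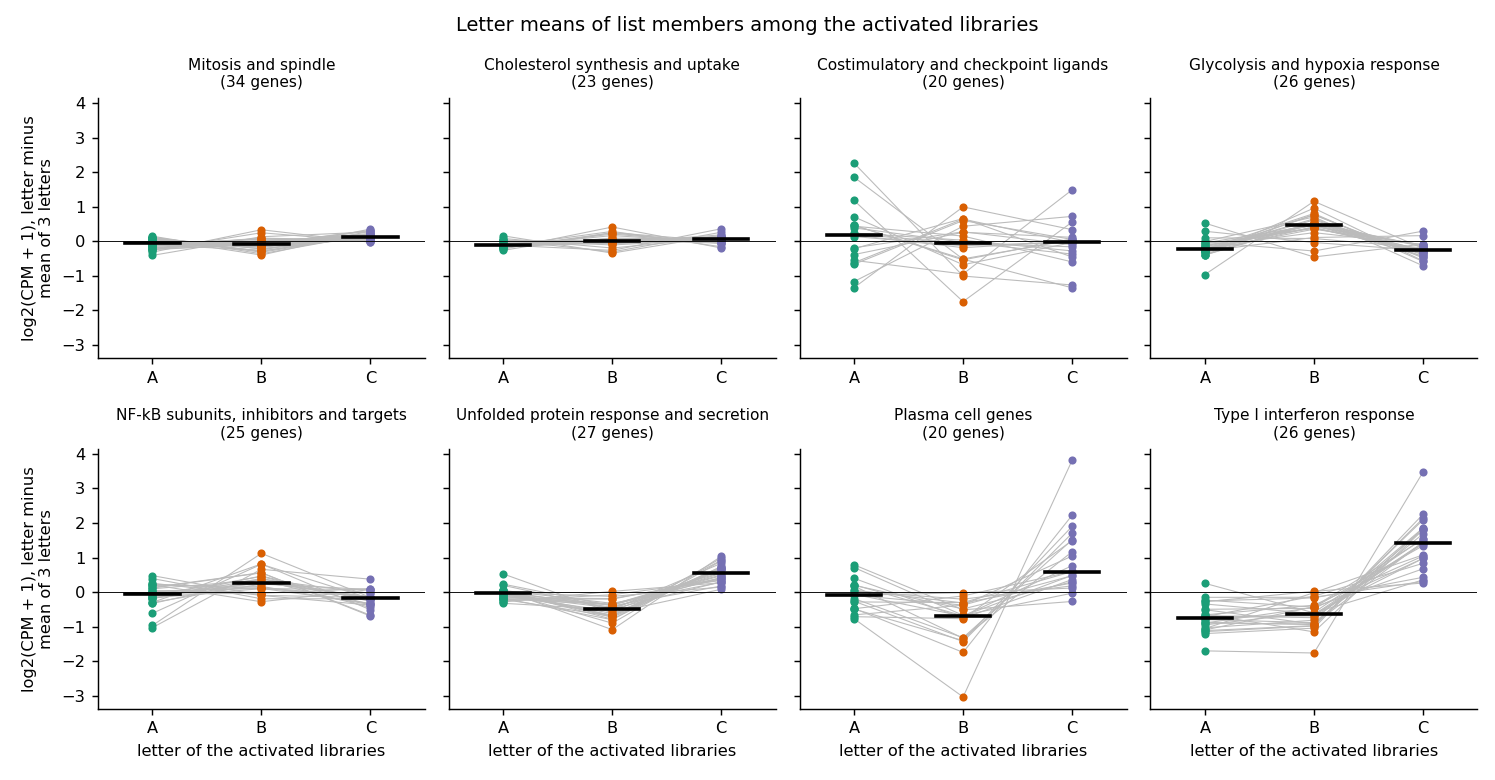
Letter means of the tested members of 8 lists among the activated libraries, as log2(CPM + 1) minus the mean of the 3 letters, with grey lines joining a gene and black bars at the median. Mitosis and cholesterol genes lie near 0 in each letter, glycolysis genes are highest in B, and unfolded protein response, plasma cell and interferon genes are highest in C.

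In 116 genes the letters fell on opposite sides of the naive libraries, with all 3 libraries of 1 letter above and all 3 of another below all naive libraries. None of these was called against naive cells, and 115 differed by letter. Picking genes by letters on opposite sides favours both outcomes, so neither count is a separate result. Aire, the autoimmune regulator, had letter means of 34.2, 0.186 and 0.527 CPM against 5.32, 8.23 and 3.91 CPM. Oasl1, an interferon-induced gene, had 0.373, 0.315 and 48.6 CPM against 16.9, 11.1 and 27.4 CPM. Slamf6, a costimulatory receptor of lymphocytes, had 374, 48.3 and 242 CPM against 259, 235 and 196 CPM. The mean of Slamf6 over the 9 libraries, 222 CPM, lay within the naive range, with letter A above it and letter B below it.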

How the data were processed

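Gene counts of 12 RNA sequencing libraries, 9 of activated and 3 of naive cells, were taken as deposited by the authors, 1 count table with a column per library. The submitters' processing notes name STAR 2.7.10a, featureCounts 2.0.6, DESeq2 and the mm10/GRCm38 build. The use of strand and of reads with several matches is not given in the sources used here. Symbols and positions came from GENCODE (GRCm38), which named 54809 of 54838 gene IDs. Letters were read from the titles. Counts of the 3 activated libraries of a letter were summed, and the 3 sums were compared with 3 naive libraries in edgeR 4.0.16 (R 4.3.3, limma 3.58.1) with filterByExpr, TMM scaling and the robust quasi-likelihood test, two-sided, with Benjamini-Hochberg adjustment over 16012 genes and a threshold of 0.05. A change is shared where a gene was called and the CPM of all 9 activated libraries lay outside those of all 3 naive libraries on 1 side. The letter term was tested in the 9 activated libraries with titled stimulus as a term. The code was tested on simulated counts first.

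The members and lists were chosen with earlier results of these data known, and no list was tested as a set. Named genes were the 5 markers, the 15 largest increases and decreases among shared protein-coding genes of at least 10 CPM, the 10 with the largest letter ratios, the 10 in each direction that changed at least 8-fold with the least spread, the 10 with the largest ratio among those with letters on opposite sides, and list members with large called changes or a role that bears on the list. A few library markers outside this rule were named after their values were seen. Where a group had no count, the fold change is a bound that takes 3 counts for the whole group, and those against 1 to 3 counts have an exact 95% interval. Both cover counting error only. With genes at their bound the median moved in no list but the neutrophil one, with 2 genes tested, where it went from -7.53 to -6.32. Deviations of the same letter in activated and naive libraries had correlations across genes of 0.0102, 0.119 and 0.0888 for A, B and C, so letters were not taken as pairs. Alternatives were another unit of replication, all 15 libraries in the fit, DESeq2 1.42.0, other scalings and filters, each unit left out, each titled stimulus alone, and the letter as a block. Promoters of RefSeq (GRCm38.p6) were matched by symbol. Some genes that the rule names are not reported here.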

Additional observations from a re-analysis of the deposited data

Results flagged for a closer look

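Among 427 named genes, 6 had 1 activated library set apart from the other 8 by a large gap relative to the range. Chance alone is expected to flag about 1 in 20 groups of independent values, so 6 is no more than chance would give. Libraries of a letter resemble one another, so that rate is only a rough guide here. Fos was at 11.2 CPM in the library titled LPS, letter A, against 1.01 to 5.59 CPM in the others. Birc5, an inhibitor of apoptosis with a role in mitosis, was at 70.2 CPM in that titled CpG, letter B, against 83.0 to 96.1 CPM. Rfc4, a clamp loader of replication, was at 50.1 CPM in that titled LPS, letter C, against 32.8 to 41.3 CPM. The library titled CD40, letter C, stood apart for 3 genes. It was at 0.272 CPM for Hbb-bs, with the others at 0, and at 0.621 CPM for Nxpe2, against 0 to 0.124 CPM. For S1pr4, a sphingosine phosphate receptor, it was at 83.2 CPM against 57.7 to 70.4 CPM.

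In the 10 genes below, the libraries of 1 letter lay above and those of another below all naive libraries. The letters differed in each by the test of letter, which the way these genes were picked favours. The difference of each letter from naive cells was not tested. The highest letter mean was 184 times the lowest for Aire and 154 times for Oasl1. It was 14.8 times for Lgals3bp, with letter means of 5.72, 8.92 and 84.4 CPM for A, B and C against 25.3, 12.8 and 17.5 CPM in naive cells. For Fkbp11, a foldase of the secretory pathway, it was 13.7 times (5.33, 2.36 and 32.3 CPM against 3.85, 4.59 and 3.26 CPM). For Ly6a, which encodes Sca-1, it was 8.88 times (187, 82.7 and 735 CPM against 187, 316 and 206 CPM). For Isg20, an interferon-induced exonuclease, it was 8.61 times, for Slc37a2 7.86 times and for Slamf6 7.75 times. For Csf2rb, the common beta chain of cytokine receptors, it was 7.13 times (7.63, 54.4 and 48.0 CPM against 12.1, 10.5 and 15.7 CPM), and for Cytip 6.81 times.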

How the results depend on the processing

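Counts of calls depended on the unit of replication and on single libraries. With each of the 9 activated libraries as a replicate, 4380 genes were higher and 3258 lower, 3371 and 2311 of them shared. The fit of all 15 libraries, with 1 mean per titled group, also took each library as a replicate. It gave 4014 genes higher and 3334 lower, 3252 and 2290 of them shared. DESeq2 called 2862 higher and 2204 lower. With 1 unit left out, genes higher numbered 853 to 4104 and genes lower 681 to 2285, shared higher genes 853 to 3215 and shared lower genes 681 to 2279. Shared was judged there over the libraries that remained. The lowest counts came without an activated letter, and the highest without naive C for genes higher and without naive B for the other 3. The median log2 fold change over all genes was 0.169 to 0.442 in these fits, 0.106 with upper quartile scaling and 0.137 with library size alone. RLE size factors, other filters on low counts, and each titled stimulus alone moved the counts by less than 1.5 times. With the letter as a replicate block 1306 genes were higher, 1264 of them shared, and 1016 were lower. The letters do not pair the libraries by label, and whether a call lost there is a weaker effect was not tested. Genes that differed by letter fell to 3205 without activated B, and those also called against naive cells to 1127, from 2100. With any 1 letter left out these were 3205 to 5680 and 1127 to 1711. The causes were not tested. Of 416 named genes that were called, 234 were on the same side of the threshold in every alternative that gave them an adjusted p. None changed direction. Some fits gave fewer of them an adjusted p, 410 with a filter on a mean of 1 CPM and 414 with DESeq2. Named genes were not followed under upper quartile or library size scaling. With no filter on low counts 59 of these calls were lost. More were lost without activated C (135), activated B (130), activated A (121) or naive A (118). With the letter as a block 80 were lost, those of Ighg1, Ccnb1, Egr1 and Slc16a3 among them. Upper quartile and library size scaling of the calls, and the test of the stimulus term, were added after seeing the data. Depth limits only genes of a few counts, for which bounds or intervals are given, and these cover counting error only. At similar depths naive A, B and C had 13920, 11523 and 18866 genes detected, against 16314 to 19320 in activated libraries. What part this has in the genes with no naive count was not tested.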
